A study of Morchella importuna with 4 samples.

Results

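A set of 10 genes of trehalose and glycogen storage was followed in Morchella importuna, a cultivated morel, at the stage when its sclerotia begin to form. Of the 11599 genes of the expression table, 5 were taken by listed JGI numbers (trehalose synthase, tps1, glycogen phosphorylase, pgm2 and alpha-1,4-glucan lyase). Another 5 were taken because a description names trehalose, trehalase, glycogen synthase, glycogenin or a glycogen debranching enzyme. The choice was made with earlier results of these data known. The study had reported trehalose synthase as higher in the sclerotial area. It had reported the genes named here glycogen phosphorylase and alpha-1,4-glucan lyase as lower there. All 10 passed the filter on low values and were tested. The names of tps1 and pgm2 are those that the study assigned by similarity to Saccharomyces cerevisiae proteins, since their descriptions in the table name only a glycosyltransferase family and a phosphoglucomutase domain.

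A single strain was grown in the dark on potato dextrose agar at 20 °C, and the labels name no treatment or genetic change for either area. The inner area of each plate, where cells swell and micro-sclerotia appear, gave the SII libraries (n = 2), and the sparse outer area of normal hyphae gave the SIO libraries (n = 2). Each library pooled material of 2 individuals, so that differences between single colonies cannot be seen. No defining marker genes of sclerotial cells were given in the sources used here, so the areas were taken from the labels alone.

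Trehalose is a non-reducing disaccharide that fungi store in spores, sclerotia and other resting cells, where it also stabilises proteins and membranes. In the usual fungal route, trehalose-6-phosphate synthase joins UDP-glucose and glucose 6-phosphate, a phosphatase removes the phosphate, and trehalase later splits the sugar into glucose. Glycogen is the branched glucose polymer of the fungal cytoplasm, started on the protein primer glycogenin, extended by glycogen synthase and taken apart by glycogen phosphorylase and the debranching enzyme. Phosphoglucomutase and UDP-glucose pyrophosphorylase connect both stores to glucose 6-phosphate.

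Whole reads recovered for each library totalled 23108142 to 27992918. Across all genes, the R2 of log2(FPKM + 1) was 0.948 between the SII replicates and 0.994 between the SIO replicates, and SII replicate 2 was nearer to SIO (0.810 and 0.813) than SII replicate 1 (0.738 and 0.735). FPKM scales the fragments of a gene by its length and by the mapped fragments of the library, so levels can be compared between genes. A gene was called when limma on log2(FPKM + 1) gave a Benjamini-Hochberg adjusted p below 0.01 together with a log2 fold change (SII minus SIO) of 1 or more in size. Of 8906 genes tested, 10.3% were called higher and 12.2% lower in SII, 22.4% in all. The split between directions moved with the scaling, with 45.7% of calls higher in SII as given here and 56.9% under median-ratio scaling.

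Trehalose synthase and a gene annotated as trehalose-6-phosphate hydrolase were higher in SII, and alpha-1,4-glucan lyase was lower. These were the only calls, 2 higher and 1 lower of 10 members, and a total of 3 is close to what the background of 22.4% would give. The other 7 members did not pass the test. With their values alone, 3 of 10 members were higher in both SII libraries than in both SIO libraries and 7 of 10 were lower in both. Areas that do not overlap were common among all genes tested, at 79.6% (35.6% with SII higher and 43.9% with SII lower), so non-overlap by itself sets no member apart. The median log2 fold change was -1.27 over the 10 members and -0.11 over all genes tested. Since members were chosen with earlier results of these data known, the gap between these medians is no test of the set. Since RNA was taken from whole tissue, a lower share of a cell type and less RNA per cell cannot be told apart.

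**Figure D1:**
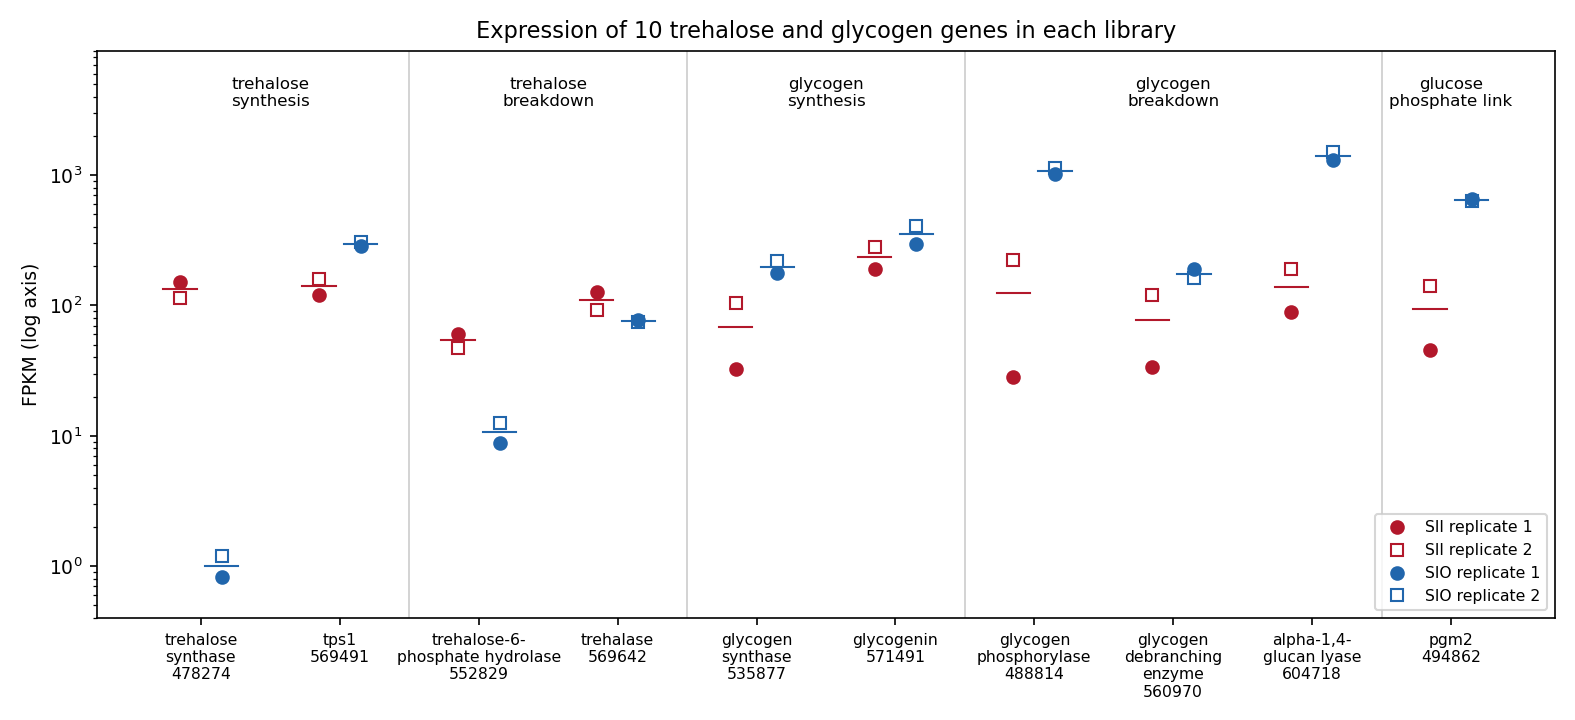
FPKM (log axis) of the 10 genes in each library, grouped by role, with SII in red left of SIO in blue, replicate 1 as filled circles, replicate 2 as open squares and the mean of each area as a line. Trehalose synthase is at 152 and 115 FPKM in SII and near 1 FPKM in SIO, whereas glycogen phosphorylase, alpha-1,4-glucan lyase and pgm2 lie highest in SIO and spread widely in SII.

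Of the trehalose genes, the largest difference was in the trehalose synthase gene. JGI 478274's gene description is putative trehalose synthase, while its closest protein match is named trehalose phosphorylase. The phosphorylase reversibly joins glucose and glucose 1-phosphate into trehalose, without the sugar phosphate intermediate of the usual route. It was at 152 and 115 FPKM in SII replicates 1 and 2, against 0.819 and 1.20 FPKM in SIO replicates 1 and 2. Behind these levels stood 7439 and 5216 reads in SII and 45 and 65 reads in SIO. Both SII libraries were far above both SIO libraries, and the ratio of the area means was 132. The log2 fold change was 6.06 (standard error 0.23, limma adjusted p = 0.00112). The pseudocount pulls this value down, and it was 7.05 by limma-voom on the recovered reads. Trehalose synthase was also called in each fit that left out 1 library, with log2 fold changes of 5.86 to 6.26. By FPKM it ranked 1012 and 1315 among all genes in the SII libraries, against 8770 and 8474 in the SIO libraries.

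The gene named tps1 was the other gene of synthesis, and JGI 569491's annotation is the glycosyltransferase family that holds the trehalose-6-phosphate synthases. It was at 121 and 160 FPKM in SII, against 288 and 305 FPKM in SIO. Both SII libraries were below both SIO libraries, with a mean 2.11 times as high in SIO as in SII. The log2 fold change was -1.09 (standard error 0.19, limma adjusted p = 0.0131), and the gene was not called. Without SII replicate 2 the value was -1.29, and without SII replicate 1 it was -0.89.

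Summed over both genes counted as trehalose synthesis, FPKM was nearly level between the areas. The log2 ratio of SII over SIO was -0.12, and -0.33 for shares of the library's summed FPKM. Counting both genes rests on the description of trehalose synthase, since the phosphorylase named by its closest match is reversible and could also act in breakdown. Without trehalose synthase, tps1 alone was lower in both SII libraries. No member is annotated as the phosphatase of the usual route, so the sum leaves that step out. The sum was 273 and 275 FPKM in SII, against 288 and 306 FPKM in SIO, or 0.0297% and 0.0298% of the summed FPKM of the SII libraries and 0.0362% and 0.0383% of that of the SIO libraries. What differed was the make-up of the sum. Within a library, trehalose synthase stood to tps1 as 1.26 and 0.719 in SII, and as 0.00285 and 0.00394 in SIO. Ratios within a library do not depend on how libraries were scaled. Both genes thus contributed similar amounts in SII, and tps1 made up almost all of the sum in SIO. An exact two-sided permutation test of the sum or of this ratio over 4 libraries gave p = 0.333, the smallest that 2 against 2 allows.

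On the breakdown side, JGI 552829 was higher in SII. Its gene description is only glycoside hydrolase, and its name comes from a match to a Fusarium protein called trehalose-6-phosphate hydrolase, an activity best known from bacteria that splits trehalose 6-phosphate into glucose and glucose 6-phosphate. Its levels were 60.7 and 47.4 FPKM in SII, against 8.76 and 12.5 FPKM in SIO. The areas did not overlap, and the means differed 5.08-fold (log2 fold change 2.25, standard error 0.25, limma adjusted p = 0.00532). The call was lost without SIO replicate 1 (limma adjusted p = 0.0441) and without SIO replicate 2 (limma adjusted p = 0.0337), with log2 fold changes of 2.01 and 2.48. Trehalase proper, JGI 569642, which splits trehalose itself, was at 126 and 93.0 FPKM in SII, against 76.8 and 74.4 FPKM in SIO. Its log2 fold change of 0.51 (standard error 0.20, limma adjusted p = 0.0951) did not pass, and was 0.30 when SII replicate 1 was left out. The SII libraries differed from each other by more than SII replicate 2 did from SIO. Relative to tps1 in the same library, trehalase stood at 1.04 and 0.582 in SII and at 0.267 and 0.244 in SIO.

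**Figure D2:**
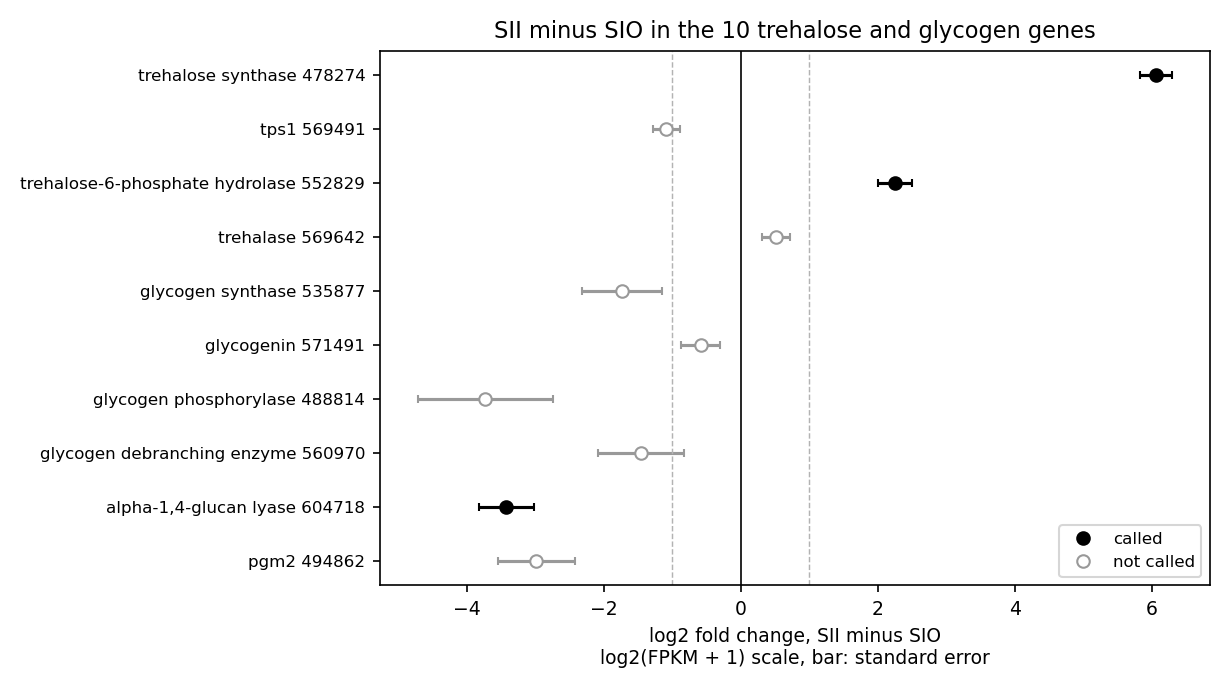
Log2 fold change of SII minus SIO for the 10 genes on the log2(FPKM + 1) scale, with the standard error of the limma fit (2 libraries per area) as bars, called genes in black and genes not called in grey, and dashed lines at the fold threshold. The 4 trehalose genes run from -1.09 to 6.06 with standard errors of 0.19 to 0.25, and the 6 other genes are all below 0, with standard errors of up to 0.99 for glycogen phosphorylase.

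Genes of glycogen synthesis were lower in both SII libraries, within wide errors. Glycogen synthase, JGI 535877, adds glucose from UDP-glucose to the chain. It was at 32.6 and 105 FPKM in SII, against 177 and 220 FPKM in SIO. SII replicate 1 was much the lowest, and SII replicate 2 lay between it and SIO. The log2 fold change was -1.73 (standard error 0.58, limma adjusted p = 0.066), and the gene was not called. It was called only without SII replicate 2, at -2.56, and the value without SII replicate 1 was -0.90. The gene matched to glycogenin, JGI 571491, has no function in its own gene description (expressed protein), and its closest match is named as similar to glycogenin-2. It was at 191 and 283 FPKM in SII, against 298 and 410 FPKM in SIO, so that SII replicate 2 came close to SIO replicate 1. Its log2 fold change was -0.58 (standard error 0.28, limma adjusted p = 0.15), and -0.30 when SII replicate 1 was left out. Glycogen synthase stood to glycogenin as 0.170 and 0.372 in SII and as 0.595 and 0.535 in SIO.

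Alpha-1,4-glucan lyase and glycogen phosphorylase of glycogen breakdown were the most abundant members in SIO and had the lowest fold changes. The alpha-1,4-glucan lyase cuts glucose units from alpha-1,4-glucans by elimination and yields anhydrofructose, and is described from red algae and morels. JGI 604718's description gives this name, while its closest match is a hypothetical protein. It was at 88.4 and 190 FPKM in SII, against 1315 and 1496 FPKM in SIO, where it was the most abundant member and ranked 67 and 59 among all genes. Both SII libraries were far below SIO, and the mean was 10.1 times as high in SIO. The log2 fold change was -3.42 (standard error 0.40, limma adjusted p = 0.00566). The call was lost without SIO replicate 1 (limma adjusted p = 0.0325) and without SIO replicate 2 (limma adjusted p = 0.0329), where the fold change was -3.52 and -3.33.

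Glycogen phosphorylase releases glucose 1-phosphate from chain ends. JGI 488814's closest match carries this name, and its own description is glycosyl transferase. It was at 28.4 and 222 FPKM in SII, against 1016 and 1127 FPKM in SIO, from 1860 and 13529 reads in SII and 74902 and 81843 reads in SIO. The areas did not overlap, but the SII libraries differed 7.81-fold from each other, the widest such gap of any member. With this spread the log2 fold change of -3.73 (standard error 0.99, limma adjusted p = 0.0358) was not called. Leaving out SII replicate 1 gave -2.26, and leaving out SII replicate 2 gave -5.19. Both fits called the gene, but only the SIO pair sets their variance. The debranching enzyme, JGI 560970, which removes the branch points that stop the phosphorylase, was at 33.4 and 120 FPKM in SII, against 189 and 162 FPKM in SIO. Its log2 fold change was -1.45 (standard error 0.63, limma adjusted p = 0.12), and it was called only without SII replicate 2, at -2.36, while the value without SII replicate 1 was -0.54.

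Transcript ratios between genes of glycogen metabolism differed between the areas for some pairs and not for others. Phosphorylase stood to synthase as 0.872 and 2.11 in SII, against 5.74 and 5.13 in SIO. Its lead over synthase was thus larger in both SIO libraries, and absent in SII replicate 1. Debranching enzyme stood to synthase as 1.03 and 1.14 in SII and as 1.07 and 0.739 in SIO, values that overlap between the areas. The ratio of glucan lyase to phosphorylase was 3.11 and 0.858 in SII and 1.29 and 1.33 in SIO, so that the SII libraries lay on both sides of SIO. Of 7 ratios examined, 5 did not overlap between the areas, and each of these reached only p = 0.333 in the exact two-sided permutation test, before adjustment for 7 ratios.

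**Figure D3:**
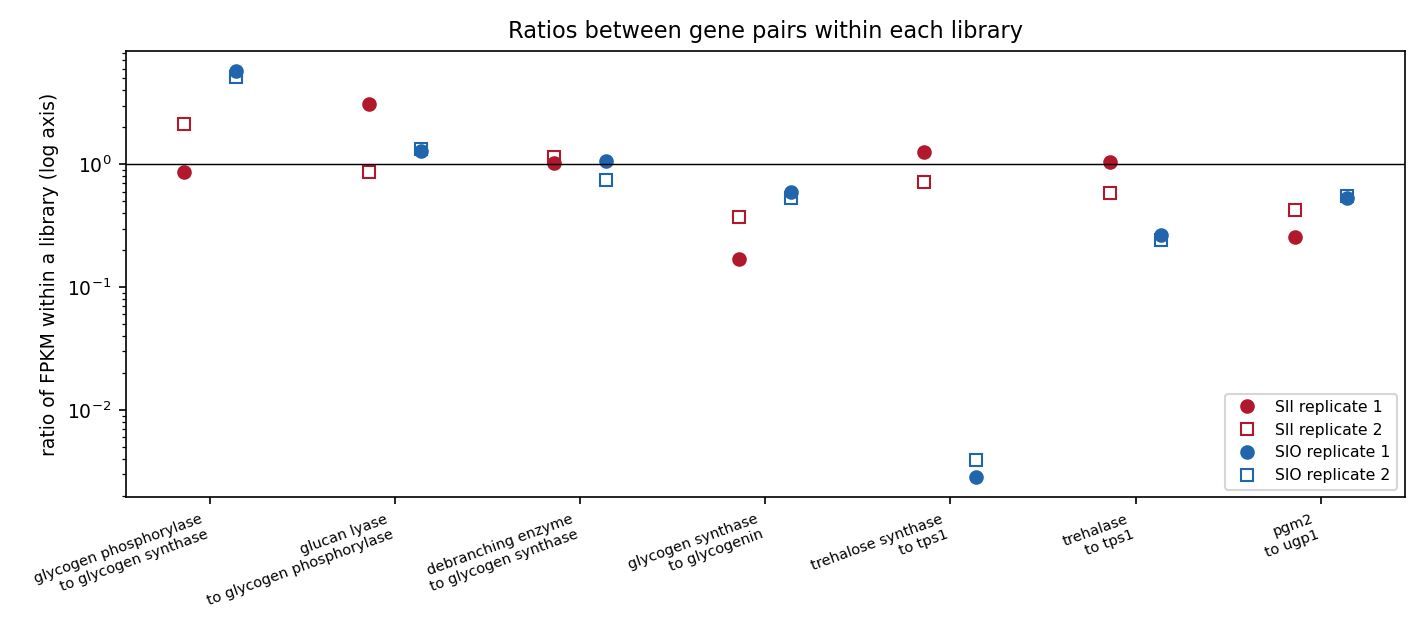
Ratio of FPKM between 2 genes of the same library (log axis) for 7 pairs, SII in red left of SIO in blue, with replicate 1 as filled circles, replicate 2 as open squares and a line at equal levels. Trehalose synthase to tps1 is 1.26 and 0.719 in SII and below 0.01 in SIO, and glycogen phosphorylase to glycogen synthase is 0.872 and 2.11 in SII and above 5 in SIO.

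Phosphoglucomutase, pgm2, JGI 494862's assigned name, interconverts the glucose 1-phosphate of the phosphorylase and glucose 6-phosphate. It was at 45.4 and 142 FPKM in SII, against 660 and 628 FPKM in SIO. The areas were well apart, with a mean 6.87 times as high in SIO, but the SII libraries differed 3.13-fold. The log2 fold change of -2.98 (standard error 0.56, limma adjusted p = 0.0148) was not called. It was called when either SII replicate was left out, at -2.17 without SII replicate 1 and -3.80 without SII replicate 2.

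Summed by role, the 3 genes of glycogen breakdown held 150 and 532 FPKM in SII, against 2520 and 2786 FPKM in SIO, or 0.0163% and 0.0578% of the SII libraries and 0.317% and 0.349% of the SIO libraries. The mean was 7.77 times as high in SIO, a log2 ratio of SII over SIO of -2.96 that became -2.32 without SII replicate 1 and -4.14 without SII replicate 2. Both member genes of glycogen synthesis summed to 224 and 388 FPKM in SII, against 475 and 630 FPKM in SIO, a mean 1.80 times as high in SIO. The glycogen sums hold members only. They leave out a branching enzyme match and a second glucan lyase gene, given below, that were also lower in both SII libraries. For trehalose breakdown, with trehalose synthase not counted, the sum was 186 and 140 FPKM in SII, against 85.5 and 86.9 FPKM in SIO. Its mean was 1.90 times as high in SII. No sum overlapped between the areas, and each gave p = 0.333 by the exact two-sided permutation test. All 10 genes together took 0.0957% and 0.160% of total FPKM in SII libraries, against 0.506% and 0.556% in SIO libraries.

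Both SII libraries stood on the same side of SIO for every member, but SII replicate 2 was the nearer one for all 10. Its level lay between those of SII replicate 1 and the SIO mean for 10 of 10 members, against 57.0% of all genes tested. That share also covers genes whose areas overlap, as those of no member do, so the 2 sets are unlike. On the log2(FPKM + 1) scale it lay 6.48% of the way from SII replicate 1 to the SIO mean for trehalose synthase. It lay 14.4% of the way for JGI 552829 and 59.4% for trehalase, the other members higher in SII, and 31.2% for tps1. For the 5 glycogen genes and pgm2 it lay between 27.6% (glucan lyase) and 77.0% (debranching enzyme) of the way. The median was 49.6% over the members and 17.3% over all tested genes whose areas did not overlap. SII replicate 2 was also the nearer to SIO over all genes, and the part of this in the members' values was not tested.

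At an adjusted p below 0.05 with the same fold threshold, 2 members were called higher and 4 lower, against 15.6% and 21.1% of all genes tested. The added members were tps1, glycogen phosphorylase and pgm2, which were all chosen by JGI number. Since members were chosen with earlier results of these data known, the shares over all genes are no fair measure for them. When no filter was applied, limma called 0 genes of the whole table and 0 members, with 5305 genes and 5 members at an unadjusted p under 0.05, while limma-voom on recovered reads called the same 3 members as above.

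Enzymes that supply glucose phosphates and UDP-glucose to both stores had lower values in SII, but not all by as much as pgm2. Of 6 such genes tested, 0 were called higher and 3 lower, beside 10.3% and 12.2% of all genes tested. All 6 had negative log2 fold changes, as had 4827 of the 8906 genes tested, and their median was -1.86 against -0.11 over all genes. This list, too, was chosen with earlier results of these data known. The 3 not called ranged from -2.97 to -0.33 (limma adjusted p = 0.0128 to 0.265), with a second phosphoglucomutase match at -0.39. Hexokinase, which phosphorylates glucose, was at 55.0 and 146 FPKM in SII, against 800 and 790.1 FPKM in SIO (log2 fold change -3.13, limma adjusted p = 0.00961). The gene named ugp1, a UTP-glucose-1-phosphate uridylyltransferase that makes UDP-glucose, was at 179 and 335 FPKM in SII, against 1245 and 1145 FPKM in SIO (log2 fold change -2.28, limma adjusted p = 0.00869). A second gene matched to this enzyme, JGI 532007, had a log2 fold change of -1.44 (limma adjusted p = 0.00639). Within a library, pgm2 stood to ugp1 as 0.254 and 0.424 in SII and as 0.530 and 0.549 in SIO. All 3 of these calls were lost under median-ratio scaling (limma adjusted p = 0.0121 to 0.0131) and without either SIO replicate. The hexokinase call was also lost with a pseudocount of 0.1 (limma adjusted p = 0.0106), without the trend (0.0104) and by limma-voom (0.0108).

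**Figure D4:**
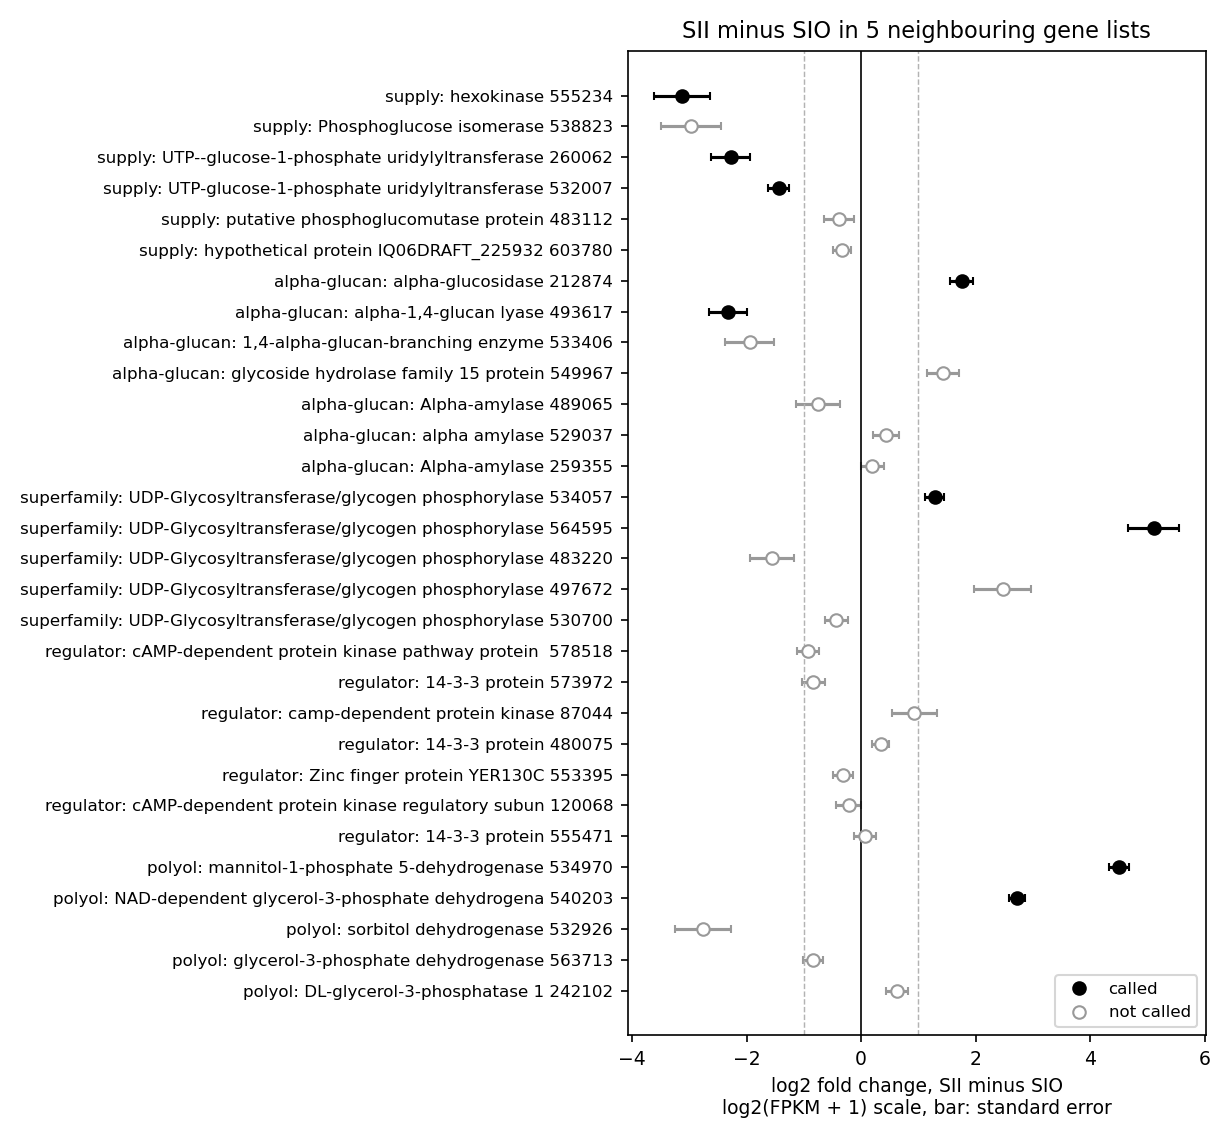
Log2 fold change of SII minus SIO, with the standard error of the limma fit (2 libraries per area), for the 30 tested genes of 5 neighbouring lists, with called genes in black, genes not called in grey and dashed lines at the fold threshold. The 6 supply genes are all below 0, the polyol list spans -2.76 to 4.50, and none of the 7 regulators is called.

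Genes of alpha-glucan hydrolysis and branching were mixed. Of 7 tested, 1 was called higher and 1 lower, beside 10.3% and 12.2% of all genes tested. An alpha-glucosidase (JGI 212874), which frees glucose from chain ends by hydrolysis, was at 89.8 and 67.8 FPKM in SII, against 21.3 and 23.6 FPKM in SIO (log2 fold change 1.76, limma adjusted p = 0.0056). A second alpha-1,4-glucan lyase gene, JGI 493617, was lower like the first but far less abundant, at 5.72 and 9.79 FPKM in SII, against 34.9 and 49.9 FPKM in SIO (log2 fold change -2.33, limma adjusted p = 0.00787). The match to a 1,4-alpha-glucan-branching enzyme, JGI 533406, which makes the branches of glycogen, was at 44.4 and 103 FPKM in SII, against 255 and 275 FPKM in SIO (log2 fold change -1.95, limma adjusted p = 0.0211), with SII replicate 1 the lowest as for the glycogen genes above. The call of JGI 493617 was lost under median-ratio and quantile scaling, and both calls were lost without either SIO replicate.

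The annotation UDP-glycosyltransferase/glycogen phosphorylase names a protein fold shared by many glycosyltransferases and says nothing of glycogen phosphorylase activity. Its 5 tested genes gave 2 calls higher and 0 lower in SII, beside 10.3% and 12.2% of all genes tested. JGI 564595 was at 128 and 57.2 FPKM in SII, against 1.13 and 1.94 FPKM in SIO (log2 fold change 5.11, limma adjusted p = 0.00367). JGI 534057 was at 58.9 and 53.7 FPKM in SII, against 24.4 and 20.8 FPKM in SIO (log2 fold change 1.28, limma adjusted p = 0.00713). JGI 483220 was at 16.2 and 35.1 FPKM in SII, against 76.5 and 68.2 FPKM in SIO, with a log2 fold change of -1.56 (limma adjusted p = 0.0308), and was not called. Glycogen phosphorylase itself thus had a value opposite in sign to both called genes of this annotation. Both calls were lost without either SIO replicate.

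The list of storage regulation held 7 tested genes (14-3-3 proteins, genes of the cAMP-dependent protein kinase pathway and msn2). Limma called 0 of them in either direction, beside 22.4% of all genes tested. At an unadjusted limma p under 0.05 there were 2 of them, beside 5210 of the 8906 genes tested. Their median log2 fold change was -0.22. The 14-3-3 proteins bind and activate neutral trehalase in Saccharomyces cerevisiae. One of them, JGI 555471, was at 2006 and 2221 FPKM in SII, against 2042 and 1989 FPKM in SIO, with a log2 fold change of 0.07 (standard error 0.19). JGI 573972 was at 1287 and 1603 FPKM in SII, against 2531 and 2591 FPKM in SIO (log2 fold change -0.83, limma adjusted p = 0.0302).

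Other small storage carbohydrates of fungi are polyols such as mannitol and glycerol. Of 6 polyol genes 5 were tested, with 2 called higher and 0 lower in SII, beside 10.3% and 12.2% of all genes tested. The match to mannitol-1-phosphate 5-dehydrogenase, JGI 534970, which reduces fructose 6-phosphate to the mannitol precursor, was at 325 and 269 FPKM in SII, against 11.3 and 12.9 FPKM in SIO (difference on the log2 scale 4.50, standard error 0.18, limma adjusted p = 0.00115). It was also called in each fit that left out 1 library. NAD-dependent glycerol-3-phosphate dehydrogenase, JGI 540203, of glycerol synthesis, was at 197 and 183 FPKM in SII, against 27.7 and 28.0 FPKM in SIO (difference on the log2 scale 2.73, standard error 0.14, limma adjusted p = 0.00172), and its call was lost without either SIO replicate. In both genes the SII replicates lay close together, as they did for trehalose synthase. Of the 5 tested polyol genes, 3 had positive and 2 negative log2 fold changes. A sorbitol dehydrogenase match, JGI 532926, was at 3.70 and 11.1 FPKM in SII, against 53.6 and 46.8 FPKM in SIO (-2.76, limma adjusted p = 0.0128). Another glycerol-3-phosphate dehydrogenase, JGI 563713, had -0.85 (limma adjusted p = 0.0182). The match to a glycerol-3-phosphatase had 0.63 (limma adjusted p = 0.0505).

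The genes nearest to trehalose synthase and to glycogen phosphorylase in pattern over the 4 libraries were found by Euclidean distance of log2(FPKM + 1) after centring each gene. For trehalose synthase they were JGI 606767, JGI 569545 and JGI 483454, all hypothetical proteins, at distances of 0.17, 0.26 and 0.27. JGI 483454 was the most abundant of these, at 4268 and 3313 FPKM in SII, against 40.7 and 62.3 FPKM in SIO. For glycogen phosphorylase they were an endopolygalacturonase (JGI 126672), a glyceraldehyde 3-phosphate dehydrogenase (JGI 187740) and an alcohol oxidase (JGI 538351), at distances of 0.16, 0.35 and 0.45. The glyceraldehyde 3-phosphate dehydrogenase, an enzyme of glycolysis, was at 39.3 and 255 FPKM in SII, against 1643 and 1520 FPKM in SIO, the same order of libraries within SII as in the phosphorylase. With 4 libraries many genes share such a pattern.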

How the data were processed

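RNA of 2 SII and 2 SIO libraries was sequenced as paired-end reads, and aligned with TopHat2 2.1.0, as the submitters' processing notes list it. The programs for counting and FPKM are not given in the sources used here. The authors' deposited table gives FPKM per library for 11599 genes. It also gives a signal, the authors' mean of scaled read counts per area, besides fold changes and p-values of their own comparison, which were not used. The mean SIO signal was above 0 for 126 genes at 0 FPKM in both SIO libraries, so it includes a further library, which entered no test.

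Genes with FPKM of 1 or more in 2 or more libraries (8906) were fitted with limma 3.58.1 (R 4.3.3) on log2(FPKM + 1), area as the only term, eBayes with a trend, and p-values adjusted over all genes tested. Whole reads were recovered from FPKM and signal within 0.01 of a read (100% of values above 0) for all but 194 genes. Sums, ratios and exact tests used numpy 2.4.6, pandas 2.3.3 and scipy 1.17.1, figures matplotlib 3.10.9. The fit was tested on simulated data with the same noise for all genes of an area, unlike the uneven spread of the members.

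The study's thresholds were kept, and limma took the place of its DEGSeq. Nothing in the labels says whether replicates are separate cultures beyond their pooling, so p-values measure the spread between these libraries. Members and lists were chosen with earlier results of these data known. Every member was named. JGI numbers are 478274 (trehalose synthase), 569491 (tps1), 488814 (glycogen phosphorylase), 604718 (alpha-1,4-glucan lyase), 494862 (pgm2), 260062 (ugp1) and 555234 (hexokinase). From each of 5 neighbouring lists, matched by description, the 4 called genes with the largest change and the 2 of highest mean FPKM were named. A second phosphoglucomutase match and the tested polyol genes that were not called were also named. For 2 members the 3 nearest genes were named. Alternatives covered the pseudocount, filter, scaling, replicate block, libraries left out, trend, thresholds and limma-voom on recovered reads. Of the 10 members, 0 could be matched to the RefSeq gene table by their JGI numbers, so no positions or sequences were used.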

Additional observations from a re-analysis of the deposited data

How the results depend on the processing

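Every member kept its direction under all 14 alternatives, but many of these could not alter it. The filters, block, trend and thresholds leave the fold change as it was. Since no member's areas overlapped, leaving out 1 library could not reverse a direction either. Higher and lower calls numbered 914 and 1084 over all genes, and 2 and 1 among members. Without a filter limma called 0 and 0 genes and 0 and 0 members. At an adjusted p under 0.05 it called 1386 and 1876 genes, and 4 members were lower. The replicate block gave 2 members lower, adding pgm2 (limma adjusted p = 0.00764). It changed no other member's call and gave 845 and 1105 genes. Deviations of same-numbered libraries correlated at 0.195 over genes, and no label says that a number marks a shared plate. Leaving out 1 library in turn gave 76 to 1778 genes higher and 2 to 2133 lower, and 1 to 2 members higher and 0 to 6 lower. The few calls came when an SIO replicate was left out, and the remaining SIO library then has to be taken to vary as the SII pair does. The cause of these changes was not tested. Median-ratio scaling left 5 of 9 calls in the neighbouring lists. Limma-voom on recovered reads called 881 and 1102 genes. The fewest reads of any member were 45, for trehalose synthase in SIO, and the part of depth in the calls was not tested.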

Other observations

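The further SIO library implied by the authors' mean signal held 21730674 reads. Scaled like the other libraries, it lay above both SIO replicates for 7 of 10 members and between them for 3, and below both for none. Glycogen synthase was at 400 FPKM in it and glycogenin at 654 FPKM, so that the spread of these genes in SIO would be wider with it than without. Glycogen phosphorylase (1186 FPKM), alpha-1,4-glucan lyase (1441 FPKM), the debranching enzyme (176 FPKM) and pgm2 (642 FPKM) were close to the SIO replicates and above both SII libraries. Trehalose synthase had 200 reads in it, or 4.69 FPKM, above both SIO replicates and far below SII. The gene annotated as trehalose-6-phosphate hydrolase was at 20.9 FPKM, also between the areas. Trehalase was at 101 FPKM, within the range of the SII libraries. No label names this library, and it entered no comparison.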
